A study of Mus musculus with 9 samples.

Results

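The transcriptome of GAS, the gastrocnemius muscle in the calf of the mouse, was described from the libraries GAS_1, GAS_2 and GAS_3, which the labels number as biological replicates 1 to 3 and which are 3 of the 9 libraries of the series. They were chosen by their label alone, and the question was how the counts of an adult muscle divide over its functions and which functions differ most between the replicates. The tissue came from mice labelled C57BL/6, and named C57Bl6/J in the methods, with no genetic change named, and carries the treatment label control. The study's methods describe young adult females that were anesthetized with ketamine and xylazine before the muscle was removed and snap-frozen. In the study, the expression profile of GAS served as the reference for histone lactylation, a mark on chromatin, in the same tissue. The labels do not say that each replicate came from its own animal, nor at what time of day the muscles were taken. With a single group there was no comparison to test, so every statement below describes values and their spread over 3 replicates, without a p-value.

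A skeletal muscle is built of long fibers, each filled with sarcomeres, in which myosin filaments pull on actin filaments when calcium is released from the sarcoplasmic reticulum. Fibers are classed by the myosin heavy chain they carry. Slow type I fibers express Myh7, and the fast types IIA, IIX and IIB express Myh2, Myh1 and Myh4, in the order of rising contraction speed and falling dependence on mitochondria. Slow and fast fibers also differ in their light chains, troponins and calcium pumps. The mouse gastrocnemius is known as a fast muscle with a deep region that is richer in oxidative fibers. Because whole muscle was sequenced, RNA of vessels, connective tissue, nerve and blood is part of the libraries, and fewer cells of a type cannot be told apart from less RNA per cell.

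The fast heavy chain genes lie side by side on the plus strand of chromosome 11 of mm10, Myh2 from 67171027 to 67197517, Myh1 from 67200052 to 67224575 and Myh4 from 67238029 to 67260446. They are shown here because these neighbors differed most widely in level and in their spread between replicates. The windows around their RefSeq transcription starts (GRCm38.p6, 100 bases before to 30 bases after the start, plus strand) read, 5′ to 3′, with capitals for TATAAA and CANNTG:
Myh4, chr11:67237712-67237841: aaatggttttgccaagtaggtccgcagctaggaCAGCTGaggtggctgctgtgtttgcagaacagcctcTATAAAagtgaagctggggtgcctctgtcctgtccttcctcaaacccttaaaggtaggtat
Myh1, chr11:67200002-67200131: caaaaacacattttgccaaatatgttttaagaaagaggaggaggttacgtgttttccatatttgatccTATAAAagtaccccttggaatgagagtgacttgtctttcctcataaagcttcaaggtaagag
Myh2, chr11:67170927-67171056: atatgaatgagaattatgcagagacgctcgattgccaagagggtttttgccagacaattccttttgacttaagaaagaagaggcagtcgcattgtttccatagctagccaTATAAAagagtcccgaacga

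TATAAA, the core letters of a TATA box, was found in each of these windows, against 6.38% of the 32851 promoter windows of the same length in the RefSeq table, searched on both strands. It began 31 bases before the RefSeq start in Myh4 and 32 bases before it in Myh1, and 10 bases after the start given for Myh2. An E-box, CANNTG, the letters bound by myogenic regulatory factors, was found in the window of Myh4 only, and 42.6% of all windows hold one. The MEF2 letters, CTA and TAG with 4 bases between them, were in none of these windows and in 1.49% of all windows. The RefSeq start of Myh4 lies upstream of the GENCODE gene start given above. A match is a description of the letters and not a bound site.

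Between 19307793 and 19941574 raw counts per replicate were assigned to genes, so that a gene with 3 counts had no more than 0.156 CPM (this bound holds for counting error alone). Protein-coding genes held 97.4% of the counts in each replicate. The 10 genes with most counts held 27.0%, 25.6% and 27.0% of replicates 1 to 3, and the 1000 genes with most counts 76.4%, 75.6% and 76.4%. Xist, the noncoding RNA of the inactive X chromosome, had 203, 204 and 204 CPM, and the Y-linked genes Kdm5d, Eif2s3y, Uty and Ddx3y had 0 counts, which matches the sex given in the methods. The defining markers of muscle fibers were high in every replicate, with 178330 to 199039 CPM summed over 8 genes. CPM here are counts scaled to the library totals with TMM factors of the 3 libraries. Over the genes with a mean of at least 5 CPM, 29.8%, 33.0% and 37.2% were highest in replicates 1, 2 and 3. Without TMM scaling these shares were 22.3%, 46.0% and 31.7%. Of the 9101 genes with a mean of at least 5 CPM, 414 (4.55%) differed by at least 1.5-fold between their highest and lowest replicate, and the median coefficient of variation (CV, the SD over the mean) was 6.81%. In these 414 genes, the replicate farthest from the other two was replicate 3 for 198, replicate 2 for 150 and replicate 1 for 66. Over pairs of replicates, 305 genes were past 1.5-fold without replicate 1, 171 without replicate 2 and 133 without replicate 3.

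Lists of 924 genes in 10 functions held 61.4% ± 0.42 (SD, n = 3) of the counts. The sarcomere held the largest share, 25.0%, 23.7% and 24.6% of the counts of replicates 1 to 3, followed by mitochondria with 14.8%, 15.8% and 15.2%. Calcium handling held 6.64% ± 0.14 and glycolysis with glycogen metabolism 5.96% ± 0.20. The phosphocreatine and nucleotide enzymes held 2.87% ± 0.09, translation 2.83% ± 0.10, protein turnover and chaperones 1.35% ± 0.03, and the group of oxygen, redox and metal genes 1.13% ± 0.22. Sarcolemma and channels came to 0.572% ± 0.011 and the extracellular matrix to 0.338% ± 0.012 (all SD, n = 3). Long mRNAs collect more counts per molecule, and the order at the top turned around on the RPKM scale, which divides by exonic length. There mitochondria held 29.7% ± 0.80 of the summed RPKM and the sarcomere 22.2% ± 0.59, while the matrix held 0.153% ± 0.007. The 38.6% ± 0.42 of counts outside the lists was led by Pde4dip, a myomegalin gene (0.472% of counts), Cmya5 (0.338%), the nuclear noncoding RNA Neat1 (0.25%), Zfp106 (0.167%) and Ndrg2 (0.166%). Pseudogenes such as Gm10222, Gm7336 and Gm5559 also appeared there with 0.132% to 0.143%. These may share reads with near-identical genes, since the treatment of reads with several alignments is not given in the sources used here.

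**Figure D1:**
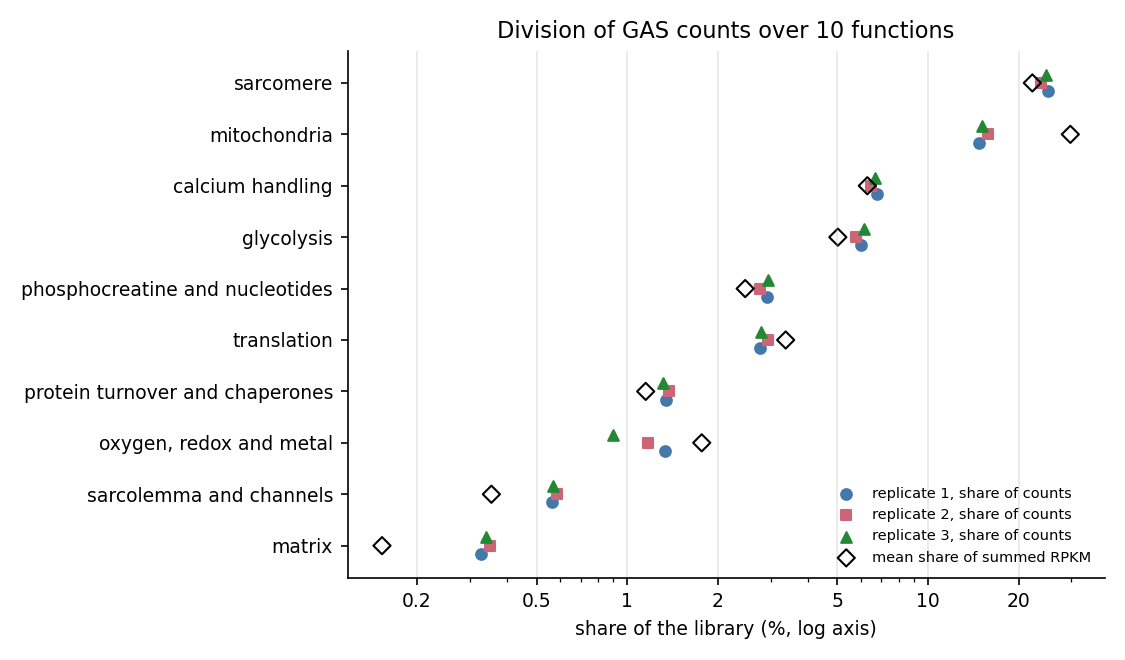
Share of each of 10 functions in the GAS libraries, in percent on a log axis, with filled symbols for the share of raw counts in each replicate and open diamonds for the mean share of summed RPKM. The sarcomere leads by counts and mitochondria lead by RPKM (29.7% against 22.2%), and the replicates are far apart only for oxygen, redox and metal genes, at 1.33%, 1.17% and 0.898%. Within this function, the CV of the summed CPM was 29.6% for oxygen and blood genes and 1.49% for redox and metal genes.

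The summed level of each main function differed little between replicates, and single genes differed more. The CV of the summed CPM was 5.04% for glycolysis, 4.66% for the sarcomere, 4.05% for calcium handling, 2.201% for the matrix, 1.64% for mitochondria and 1.42% for translation, against counting errors of 0.39% or less. Replicate 2 held the low value for glycolysis, sarcomere and calcium handling, at 0.944, 0.947 and 0.954 of the mean, and without it their CV was 1.93%, 1.253% and 0.811%. Without replicate 1, the CV was 0.435% for the matrix and 0.450% for mitochondria. The order of the functions differed with the scaling. Without TMM scaling the CV was 3.52% for the matrix, 3.38% for translation, 3.35% for mitochondria, 3.27% for glycolysis, 2.76% for the sarcomere and 2.13% for calcium handling. The median CV of single genes, which a few abundant genes cannot carry, was 9.77% in the sarcomere, 9.60% in the matrix, 7.26% in glycolysis, 7.00% in mitochondria, 6.04% in calcium handling and 4.13% in translation, beside 6.81% over all genes.

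Within the sarcomere, 6.94% ± 0.19 of all counts belonged to myosin heavy chains, 5.63% ± 0.20 to actin, tropomyosin and nebulin, 3.88% ± 0.23 to troponins, 3.00% ± 0.18 to titin, M-band and myosin-binding proteins, 2.87% ± 0.09 to the Z-disc and 2.13% ± 0.13 to myosin light chains (SD, n = 3). The genes with the largest shares were Myh4, the type IIB heavy chain (6.54% ± 0.38), Acta1, skeletal actin (2.41% ± 0.10), Tnnt3, fast troponin T (2.25% ± 0.10), and Tpm1, a tropomyosin (1.92% ± 0.12). Per length, Acta1 had the highest level of the nuclear genes with 15691 ± 911 RPKM, ahead of Tnnt3 with 14210 ± 803, the fast troponin C gene Tnnc2 with 12469 ± 827 and Myh4 with 10874 ± 835 RPKM (SD, n = 3). Ttn, which encodes the giant spring protein titin, shows the effect of length, with 1.52% of the counts and 130 ± 14 RPKM. Of the 69 sarcomere genes with at least 5 CPM, 16 were past 1.5-fold between replicates, beside 4.55% of all such genes. They were Myh7, Myl2, Myl3, Tnni1, Tnnt1 and Csrp3 of the slow fiber list, the type IIX and IIA heavy chains Myh1 and Myh2, and Tpm2, Actn2, Myh8, Actc1, Synpo2l, Xirp1, Ankrd1 and Mylk4. Mylk4, a myosin light chain kinase family gene, had the widest ratio with 701, 393 and 1341 CPM in replicates 1 to 3, so that replicate 3 was 3.41-fold above replicate 2.

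The calcium genes with the largest shares were those of fast fibers. Atp2a1, the calcium pump SERCA1 of fast fibers, took 3.29% ± 0.07 of the counts, and Pvalb, the cytosolic calcium buffer parvalbumin of fast fibers, 1.12% ± 0.06. Ryr1, the calcium release channel, held 0.425% ± 0.008 and Casq1, the calcium store protein of the reticulum, 0.314% ± 0.023 (SD, n = 3). Per length, Pvalb had 10790 ± 820 RPKM and Atp2a1 9467 ± 384, while Ryr1 had 194 ± 7 RPKM. Of 45 calcium genes with at least 5 CPM, 3 (6.67%) were past 1.5-fold, beside 4.55% of all such genes, and all 3 were highest in replicate 2. They were Casq2, the slow and cardiac calsequestrin, with 20.6, 33.5 and 16.04 CPM, Rcan2, a calcineurin regulator, with 19.2, 30.7 and 17.6 CPM, and Atp2a2, the SERCA2 pump of slow fibers, with 228, 255 and 168 CPM.

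By the counts assigned to each gene, glycolysis was led by Aldoa, the aldolase of muscle, with 1.76% ± 0.04 of the counts and 6064 ± 262 RPKM. Pygm, the phosphorylase that releases glucose units from glycogen, held 0.772% ± 0.035, Eno3, muscle enolase, 0.615% ± 0.030, and Pkm, pyruvate kinase, 0.392% ± 0.013 (SD, n = 3). Gapdh had 236 ± 18 RPKM, a value that is uncertain because the gene has many near-identical pseudogenes. Its rank among the glycolytic genes and the summed share of glycolysis are uncertain for the same reason. Ldha, the lactate dehydrogenase subunit of glycolytic tissue, had 2909, 2771 and 2952 CPM. Its partner Ldhb, the subunit of oxidative tissue, had 89.1, 185 and 86.2 CPM, with replicate 2 alone at the high value. Ldhb and Ppp1r3c, a glycogen targeting subunit of protein phosphatase with 321, 348 and 215 CPM, were the 2 genes past 1.5-fold among 43. This was 4.65% of the list, near the 4.55% of all genes with at least 5 CPM. Of the 17 glycolytic enzymes, 11 were highest in replicate 3, as were 37.2% of all genes with at least 5 CPM, and 10 were lowest in replicate 2, as were 36.0% of all genes. The largest example was Pfkfb3, a regulator of phosphofructokinase, with 1079, 1020 and 1381 CPM. Among 17 genes of glycogen and glycerol phosphate metabolism, 10 were highest in replicate 3 and 12 lowest in replicate 2. Without TMM scaling the numbers highest in replicate 3 were 10 and 10, beside 31.7% of all genes. Those lowest in replicate 2 were 8 and 11, and the share of all genes lowest there without TMM scaling was not computed. The energy buffer of the fiber was led by Ckm, the cytosolic creatine kinase, with 2.38% ± 0.09 of the counts, beside Ampd1, AMP deaminase, with 0.16% ± 0.017, Ak1, adenylate kinase, with 0.158% ± 0.006, and Adssl1 with 0.088% ± 0.001 (SD, n = 3). Ckmt2, the creatine kinase of mitochondria, had 580, 820 and 516 CPM and was the only member of 9 past 1.5-fold.

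Mitochondrial counts came mostly from the organelle's own genome, whose 13 mRNAs held 10.2% ± 0.23 of all counts. mt-Co1, a catalytic subunit of cytochrome c oxidase, held 3.26% ± 0.10 and had the highest RPKM of all genes, 21126 ± 329. mt-Cytb held 1.24% ± 0.02, mt-Nd1 1.13% ± 0.04 and mt-Nd4 0.948% ± 0.036 (SD, n = 3), and these encode subunits of complexes III and I. The nuclear genes of the respiratory chain and ATP synthase added 2.29% ± 0.24, the TCA cycle with pyruvate dehydrogenase 1.01% ± 0.08, fatty acid uptake and oxidation 0.378% ± 0.065, and carriers, import and mitochondrial translation 1.15% ± 0.07 (SD, n = 3). The highest nuclear respiratory genes per length were Cox6a2 with 1017 RPKM and Cox8b with 829 RPKM, which encode the heart and muscle forms of cytochrome c oxidase subunits.

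The nuclear respiratory genes differed between the replicates by small amounts that went the same way in nearly every gene. Their summed level was 22298, 24975 and 21256 CPM, a CV of 8.40% that was 3.39% without replicate 2. Only Cox6a1 and Atp5k were past 1.5-fold among 83, or 2.41%, beside 4.55% of all genes. Atp5b, the catalytic ATP synthase subunit, had 2100, 2302 and 2067 CPM, and Cox7a1 had 155, 179 and 137 CPM. Replicate 2 was highest in 82 of the 83 genes, against 33.0% of all genes with at least 5 CPM, and replicate 3 was lowest in 72, against 35.1%. The exception was Atp5s. Replicate 2 was also highest in 22 of 28 genes of the TCA cycle and pyruvate dehydrogenase, in 23 of 27 genes of fatty acid uptake and oxidation and in 83 of 115 genes of carriers, import and mitochondrial translation. Without TMM scaling, 82, 25, 24 and 95 genes of these lists were highest in replicate 2, beside 46.0% of all genes. With the trends on length and GC content removed, these numbers were 78, 23, 23 and 69, beside 33.7% of all genes. These members share libraries and are not independent of each other.

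Fatty acid genes had the widest spread among the mitochondrial lists, with a summed 3318, 4403 and 3584 CPM and a CV of 15.0%, or 5.46% without replicate 2. Lpl, which frees fatty acids from lipoproteins, had 354, 682 and 376 CPM, and Fabp3, a fatty acid binding protein of oxidative muscle, 214, 352 and 209 CPM. Both were high in replicate 2 alone. Ucp3, an uncoupling protein, took another order with 184, 211 and 338 CPM, as did Cpt1a, the carnitine palmitoyltransferase of liver type, with 11.2, 12.6 and 18.0 CPM. In the TCA list, Idh2 had 148, 250 and 147 CPM, and Pdk4, the kinase that shuts pyruvate dehydrogenase during fasting, 765, 1140 and 1325 CPM.

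The 13 mRNAs of the mitochondrial genome followed another order than their nuclear partners. Their sum was 101036, 100324 and 105508 CPM with a CV of 2.75%, or 0.5001% without replicate 3. Replicate 3 was highest in 10 of 13, beside 37.2% of all genes, and replicate 2 lowest in 10, beside 36.0%. Without TMM scaling, replicate 3 was highest in 7, beside 31.7% of all genes, replicate 2 was lowest in 3 and replicate 1 was lowest in 8. The shares of all genes lowest in a replicate were not computed for this setting. With RLE size factors, replicate 3 was highest in 10 and replicate 2 lowest in 10, and with the trends on length and GC content removed in 11 and 12. As a share of raw counts, the sum was 9.98%, 10.3% and 10.4% in replicates 1 to 3. Replicate 3 thus had the largest sum with and without TMM scaling, and the order of replicates 1 and 2 differed. mt-Nd5 varied most of the genes with large shares, with 6289, 5617 and 7355 CPM.

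**Figure D2:**
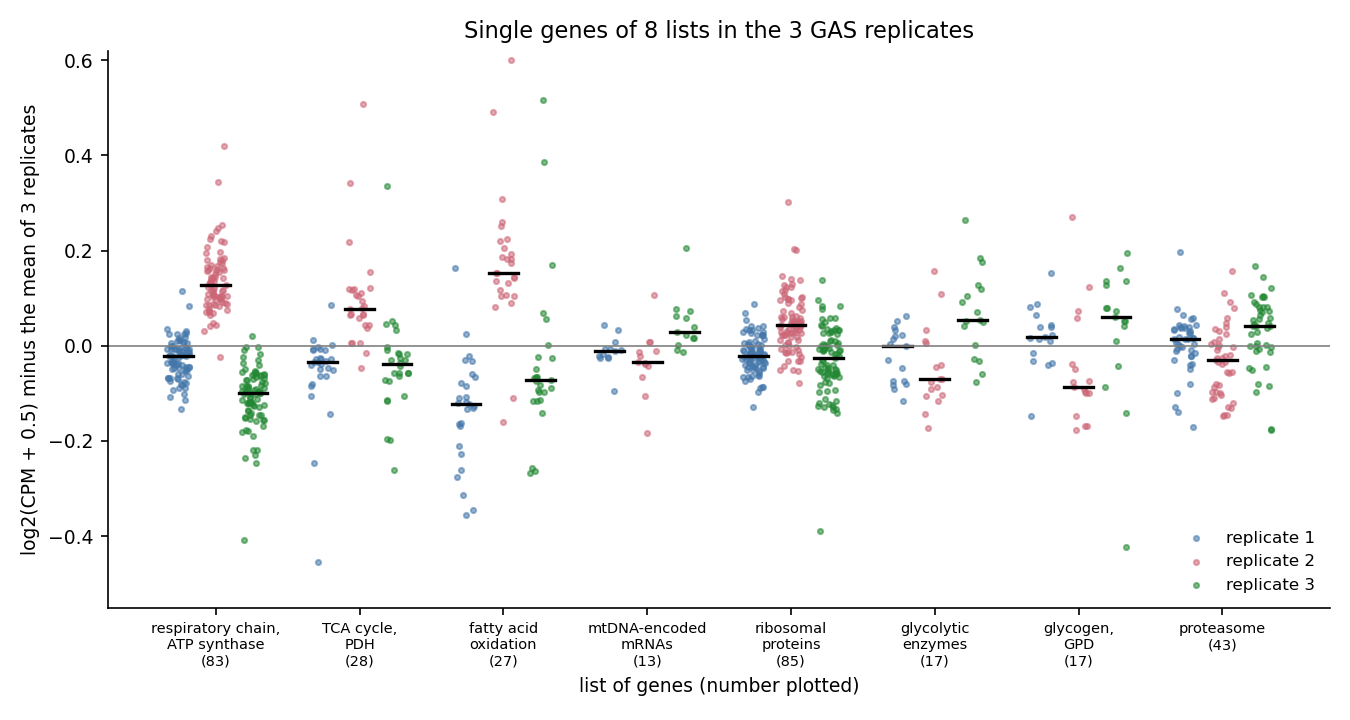
Log2 CPM minus its mean over the 3 replicates, with 0.5 CPM added, for each gene with at least 5 CPM in 8 lists, by replicate, with black bars for medians and the number of genes in parentheses. The cloud of 83 respiratory chain genes lies above 0 in replicate 2 and below 0 in replicate 3, with median log2 deviations of 0.13 and -0.098, and the medians of the 17 glycolytic enzymes lie below 0 in replicate 2 and above 0 in replicate 3.

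The deviations of the replicates also went with the exonic length and the GC content of the genes. Among the tenth of genes with the shortest exonic length (57 to 1718 bases), the median log2 deviation from the mean of the replicates was 0.001, 0.036 and -0.039 in replicates 1 to 3, and among the tenth with the longest it was 0.003, -0.031 and 0.029. Among the tenth with the lowest GC content it was -0.0005, -0.035 and 0.036, and among the tenth with the highest -0.006, 0.017 and -0.017. The respiratory chain genes had a median exonic length of 1675 bases, with median deviations of -0.022, 0.13 and -0.098. For the TCA list, with a median length of 3959 bases, these were -0.034, 0.078 and -0.039, and for the fatty acid list, with 3879 bases, -0.12, 0.15 and -0.073. The numbers of genes highest in replicate 2 after removal of both trends are given above, and the source of the trends was not tested.

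The translation genes were led by Tpt1, the translationally controlled tumor protein, with 0.177% ± 0.013 of the counts, ahead of the elongation factor Eef2 with 0.125% ± 0.005, the muscle elongation factor Eef1a2 with 0.122% ± 0.002 and the initiation factor Eif4g2 with 0.074% ± 0.001 (SD, n = 3). The 87 cytosolic ribosomal protein genes together held 1.62% ± 0.08. Of 150 translation genes with at least 5 CPM, Rps29 with 202, 235 and 145 CPM and Eif2b3, a subunit of the initiation factor eIF2B, with 11.3, 9.42 and 14.8 CPM were past 1.5-fold. These were 1.33% of the list, beside 4.55% of all genes. Eef1a2 was the steadiest of the leaders, with 1223, 1216 and 1230 CPM. Of 85 ribosomal protein genes, 59 were highest in replicate 2, and this was 70 without TMM scaling and 44 with the trends on length and GC content removed. Over all genes, 33.0% were highest in replicate 2, or 46.0% without TMM scaling. Of 53 initiation factor genes, 30 were highest in replicate 3, and 24 without TMM scaling, beside 37.2% and 31.7% of all genes. The summed level of translation varied by 1.42% (CV), and by 0.693% without replicate 2.

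The 4 matrix genes with the largest shares were a small proteoglycan, a pair of matricellular glycoproteins and a collagen. Dcn, the proteoglycan decorin, held 0.027% ± 0.004 of the counts, the glycoproteins Sparc and Sparcl1 0.016% ± 0.001 each, and Col3a1, a fibrillar collagen, 0.015% ± 0.002 (SD, n = 3). Per length, Sparcl1 had 53.5 ± 3.9 RPKM, Dcn 45.6 ± 7.3 and the basement membrane laminin Lamb2 21.5 ± 0.3. Dcn had 230, 254 and 314 CPM, highest in replicate 3. Of 78 matrix genes with at least 5 CPM, 8 (10.3%) were past 1.5-fold, beside 4.55% of all such genes. None of the 8 was a collagen or a basement membrane gene. Ccn1, a matricellular protein that is induced early by growth factors and stretch, had 18.1, 30.1 and 11.99 CPM, and Kera, the tendon and cornea proteoglycan keratocan, 3.55, 8.30 and 6.44 CPM. The remaining 6 were Fmod, Thbs1, Thbs2, Lox, Vcan and Adamts5. Tenocyte markers moved with some of them, with 88.2, 128 and 136 CPM summed over 10 genes, of which Fmod and Kera are shared with the matrix list. Their part in the matrix values was not tested.

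Among the fiber genes, the heavy chain mix was dominated by type IIB. Myh4 made up 96.0%, 91.5% and 96.6% of the summed RPKM of the 4 adult heavy chains in replicates 1 to 3. Myh1 followed with 2.74%, 5.76% and 1.90%, Myh2 with 0.936%, 2.32% and 1.24% and Myh7 with 0.322%, 0.411% and 0.224%. In RPKM, Myh4 had 11430, 9914 and 11279, Myh1 326, 624 and 222, Myh2 111, 252 and 144, and Myh7 38.3, 44.6 and 26.1. Each of these was separated from the next without overlap, except that Myh2 in replicate 2 lay above Myh1 in replicate 3. Heavy chain mRNAs are alike over long stretches, and antisense genes overlap Myh1 (Myhas) and Myh2 (9430073C21Rik), so that the division of reads between them is uncertain to an extent that the files do not show.

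**Figure D3:**
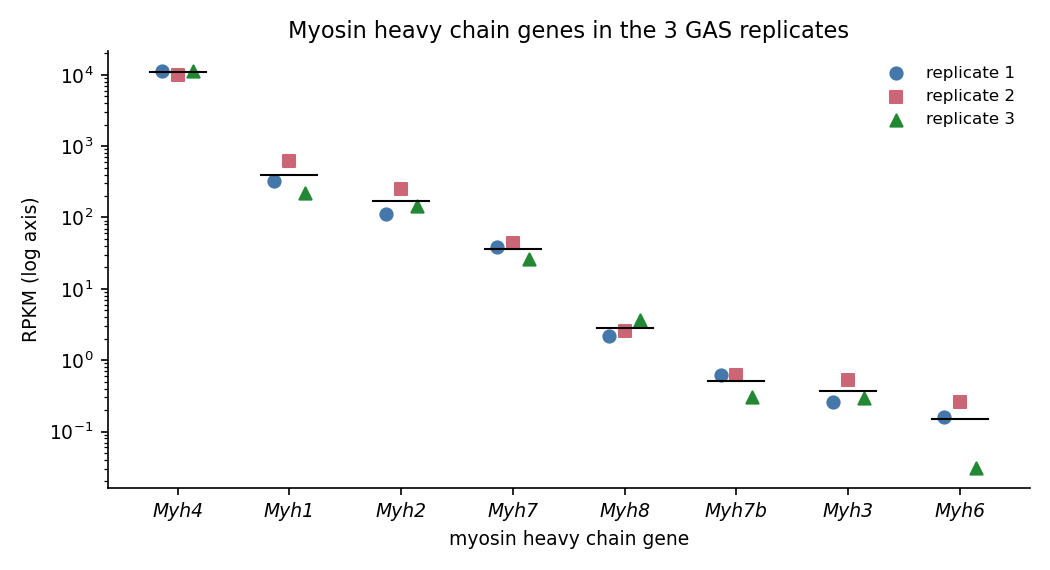
RPKM of 8 myosin heavy chain genes in the 3 GAS replicates on a log axis, with black bars for the means. Myh4 lies between 9914 and 11430 RPKM in all replicates, Myh1 and Myh2 have their highest value in replicate 2 (624 and 252 RPKM), and the developmental genes Myh8 and Myh3 stay below 4 RPKM.

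After Mylk4, the widest ratios among sarcomere genes with at least 5 CPM belonged to the type IIX and IIA heavy chains. Myh1 had 2071, 3966 and 1410 CPM, a ratio of 2.81 between replicates 2 and 3, and Myh2 had 795, 1795 and 1029 CPM, a ratio of 2.26 between replicates 2 and 1. Replicate 2 was far above the others in both, and without it the CV of their sum was 11.4% in place of 49.0%. Slow fiber genes had a CV of 17.4% of their sum, at 2176, 2474 and 1739 CPM, and the CV was 9.07% without replicate 3. Of 14 slow genes, 13 had at least 5 CPM, 11 were highest in replicate 2, 10 were lowest in replicate 3, and 8 were past 1.5-fold. Over all genes with at least 5 CPM, 33.0% were highest in replicate 2, 35.1% were lowest in replicate 3 and 4.55% were past 1.5-fold.

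Myh7 had 330, 384 and 225 CPM, and its light chains Myl2 and Myl3, the ventricular forms that slow fibers also use, had 167, 181 and 107 CPM and 114, 149 and 96.1 CPM. Each was lowest in replicate 3. Among slow troponins, Tnnt1 had 85.6, 105 and 69.2 CPM, Tnni1 39.8, 44.1 and 23.7 CPM and Tnnc1 60.5, 63.7 and 43.3 CPM. All of these thin filament genes kept the same order. Tpm3, slow tropomyosin, had 133, 136 and 95.8 CPM, and Myoz2, the slow calsarcin of the Z-disc, 44.0, 59.9 and 45.6 CPM. Mybpc1, slow myosin-binding protein C, had the highest level of the slow list, 204 RPKM, and a narrow spread with 915, 1036 and 817 CPM. Myoz2 was lowest in replicate 1. Further exceptions to the order were Myl6b with 5.74, 5.01 and 5.19 CPM and Csrp3, a muscle LIM protein, with 31.3, 19.3 and 26.6 CPM, both lowest in replicate 2. Pln, the inhibitor of SERCA2, was below 2 CPM in every replicate.

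Fast fiber genes varied little. Their sum was 219108, 194987 and 212799 CPM, a CV of 5.99%, or 2.07% without replicate 2. Of the 14 genes, 0 were past 1.5-fold, beside 4.55% of all genes. Myh4 had 68765, 59641 and 67853 CPM, Mylpf, the fast regulatory light chain, 10339, 9600 and 9898 CPM, and Actn3, the alpha-actinin of fast fibers, 10650, 9523 and 11205 CPM. Replicate 2 was lowest in 12 of the 14, beside 36.0% of all genes. Without TMM scaling it was lowest in 8, and the share of all genes was not computed for this setting. Tnni2, fast troponin I, with 6440, 6659 and 5226 CPM, had the widest ratio, 1.27, and was highest in replicate 2 like the slow genes, followed by the light chain Myl1 with 10156, 8141 and 9508 CPM and a ratio of 1.248. Replicate 1 was highest in 9 of the 14, beside 29.8% of all genes, and lowest in none, beside 29.0% of all genes. The other fast genes Tnnc2, Casq1, Pvalb, Myoz1, Myoz3, Mybpc2, Tnnt3, Tpm1 and Atp2a1 had ratios between 1.06 and 1.21.

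**Figure D4:**
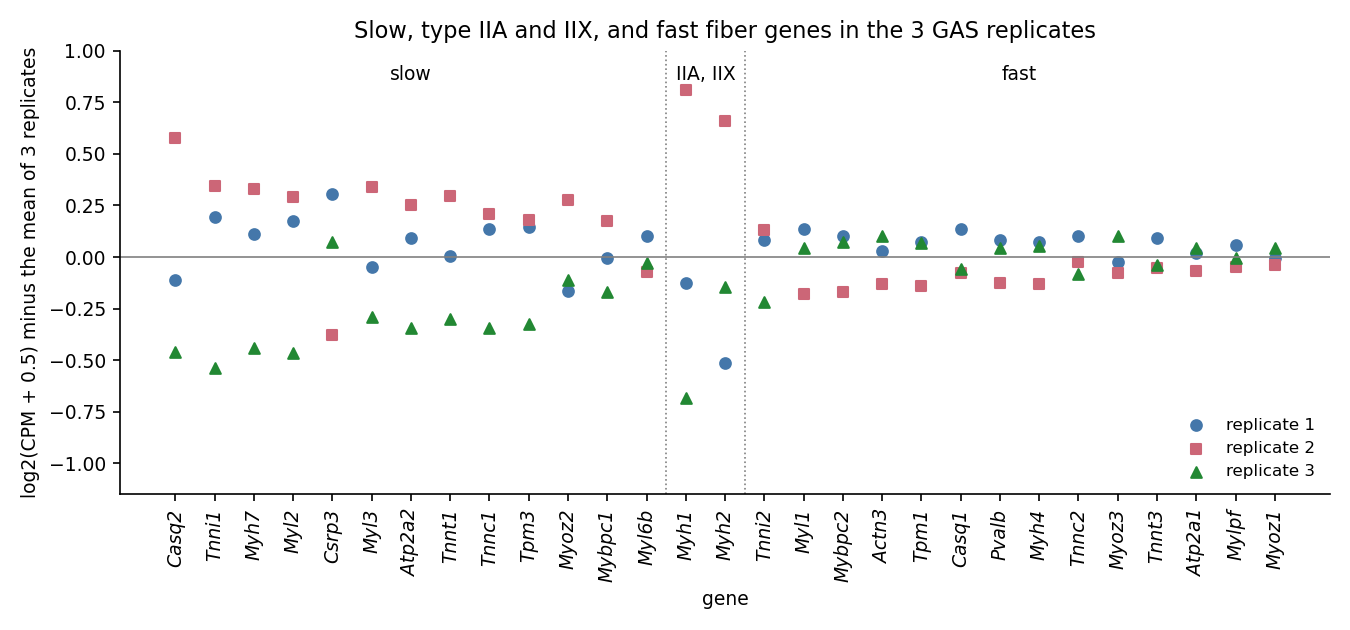
Log2 CPM minus its mean over the 3 replicates, with 0.5 CPM added, for 13 slow genes, 2 heavy chains of types IIA and IIX and 14 fast genes with at least 5 CPM, one symbol per replicate. Most slow genes and both type IIA and IIX genes have replicate 2 on top, and the 14 fast genes stay within a ratio of 1.27 between highest and lowest replicate.

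Ratios of slow to fast partners do not depend on library scaling. For 9 pairs of sarcomere and calcium genes, the ratio was highest in replicate 2 in 9 and lowest in replicate 3 in 8. All members of these pairs belong to the slow and fast lists above, so the ratios restate those values and add no separate evidence. Csrp3 and Myl6b, slow genes that were lowest in replicate 2, are in none of the pairs. The RPKM of Tnnt1 was 0.257%, 0.348% and 0.227% of that of Tnnt3, that of Atp2a2 was 0.390%, 0.464% and 0.283% of that of Atp2a1, and that of Casq2 was 0.426%, 0.803% and 0.380% of that of Casq1. The mean over replicates was below 2% for all pairs but Mybpc1 and Mybpc2, where it was 11.3% ± 2.5 (SD, n = 3). Ldhb was 6.46%, 14.1% and 6.16% of Ldha, which put replicate 2 on top in a metabolic pair too.

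Developmental and cardiac sarcomere genes were near the floor with a few exceptions. Myl7 and Mybpc3 had 0 counts in each replicate, which allows up to 0.156 CPM, Tnni3 stayed below 1 CPM, Tnnt2 below 3 CPM, and Myh6 had 21, 35 and 4 counts. Myh3, the embryonic heavy chain, had 1.57, 3.24 and 1.82 CPM, and Myh7b 4.06, 4.10 and 2.02 CPM. Actc1, cardiac actin, which adult skeletal muscle keeps at a low level, had 1034, 658 and 681 CPM, with replicate 1 alone high. Its coding sequence is close to that of Acta1, which is far more abundant, so that shared reads make its value uncertain. Myh8, the neonatal heavy chain, had 25.4, 29.9 and 43.7 CPM, and Myl4 12.3, 11.6 and 11.2 CPM.

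Oxygen, redox and metal genes had the widest spread of the 10 functions, a CV of 19.5% of the sum. Within this function, the sum of the 7 oxygen and blood genes had a CV of 29.6%. The 23 redox and metal genes were even, with a CV of 1.49%. Car3, a carbonic anhydrase of muscle, was the leader with 0.368% ± 0.009 of the counts, and Fth1, ferritin heavy chain, held 0.096% ± 0.001 (SD, n = 3). Hbb-bs, a beta globin of red cells, held 0.123% ± 0.085, and Mb, the oxygen store myoglobin of oxidative fibers, 0.096% ± 0.041 (SD, n = 3). Myoglobin had 806, 1388 and 659 CPM, the order of the summed slow genes. The blood genes had another order. Hbb-bs had 2144, 1136 and 418 CPM, Hba-a2 953, 534 and 169 CPM and Alas2, the heme synthesis enzyme of red cell precursors, 51.2, 29.6 and 9.29 CPM. The 5 blood genes summed to 5213, 2794 and 998 CPM, a CV of 70.5%, or 42.7% without replicate 3, and all were highest in replicate 1 and lowest in replicate 3. Globin pairs are near-identical, so that only their sum is firm.

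The other structural and housekeeping functions were even. Protein turnover and chaperones had among their leading genes Hsp90ab1 (0.095% of counts), Hspa8 (0.090%) and Ubb (0.075%). Their sum had a CV of 1.27%, and 2 of 84 genes were past 1.5-fold, beside 4.55% of all genes. These were the deubiquitinase Usp2 with 88.3, 71.0 and 117 CPM and the small heat shock protein Hspb7 with 134, 185 and 120 CPM. Of 43 proteasome genes, 25 were highest in replicate 3, and 23 without TMM scaling, beside 37.2% and 31.7% of all genes. Sarcolemma and channel genes had among their leading genes Scn4a, the sodium channel of muscle (0.051%), and Atp1b2, a sodium pump subunit (0.032%). Their sum, 5707, 5715 and 5728 CPM, had the lowest CV of the 10 functions with TMM scaling, 0.185%, which is below its counting error of 0.299%. As a share of raw counts, without this scaling, they held 0.564%, 0.585% and 0.567% in replicates 1 to 3, so this evenness depends on the scaling. Slc8a3, a sodium and calcium exchanger, with 81.5, 71.0 and 117 CPM was the 1 gene of 33 past 1.5-fold, and Utrn, the dystrophin relative utrophin, followed with 26.3, 23.3 and 32.8 CPM.

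Markers of other cells were low, and their lists differed in spread. Endothelial genes summed to 264, 259 and 237 CPM, led by Cdh5 with 49.1, 48.0 and 45.3 CPM, and 2 of 10 were past 1.5-fold, Kdr with 28.0, 38.6 and 21.1 CPM and Vwf with 32.6, 21.7 and 20.8 CPM. Smooth muscle and pericyte genes summed to 577 to 666 CPM, led by Abcc9 with 295 to 355 CPM, a channel subunit that muscle fibers also express. Fibroadipogenic genes summed to 1044 to 1123 CPM, of which Gsn, which is widely expressed, had 758 to 831. Macrophage genes summed to 83.1, 102 and 91.9 CPM, led by Lyz2 with 31.5, 37.0 and 32.3 CPM, and nerve genes to 85.1, 53.7 and 70.3 CPM, led by Pmp22. In the nerve list, 2 of 4 genes with at least 5 CPM were past 1.5-fold, both lowest in replicate 2, and the CV of the sum was 22.6%. Adipocyte genes summed to 111, 143 and 192 CPM, led by Cfd with 56.6, 77.3 and 99.5 CPM. All 7 with at least 5 CPM were highest in replicate 3, with and without TMM scaling, beside 37.2% and 31.7% of all genes. Lymphocyte and neutrophil genes summed to less than 3 CPM, and Cd3e, Ngp and Ly6g had 0 counts. Neuromuscular junction genes, led by Chrnb1 with 32.4 to 33.5 CPM, had a CV of 2.91%, and Pax7, the marker of satellite cells, had 2.03, 2.43 and 2.34 CPM. In the satellite cell list the highest gene was Des, desmin, with 2354 to 2415 CPM, which muscle fibers also express. None of the 10 fibroadipogenic genes was past 1.5-fold, against 5 of 7 adipocyte and 3 of 5 tenocyte genes with at least 5 CPM, beside 4.55% of all genes. The part of these cell types in the differences between replicates was not tested.

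Immediate early genes, which respond to stimuli within minutes, and clock genes, which cycle over the day, held the widest ratios of all. Fos had 16.7, 33.1 and 2.96 CPM, an 11.2-fold range, and Egr1 15.7, 37.1 and 4.46 CPM, an 8.31-fold range. Both were highest in replicate 2 and lowest in replicate 3. Of 22 immediate early and stress genes with at least 5 CPM, 13 were past 1.5-fold, beside 4.55% of all genes. Of these 22, 12 were highest in replicate 2, beside 33.0% of all genes, and 8 in replicate 3, beside 37.2%. Dusp1, Klf2, Btg2, Zfp36, Ier2 and Junb had the order of Fos, with ratios between 1.88 and 2.59, and Nr4a1 had an even 109, 114 and 111 CPM. Cebpd went another way with 9.65, 17.2 and 23.3 CPM, and Myc and Cebpb were also highest in replicate 3. Among clock genes, 7 of 16 were past 1.5-fold, beside 4.55% of all genes. Per2 had 4.77, 1.67 and 10.8 CPM, Dbp 81.0, 38.1 and 108 CPM, and Per1 21.3, 18.8 and 49.0 CPM. Arntl, the activator that peaks opposite to the Per genes in the daily cycle, had 25.4, 32.5 and 13.3 CPM, the reverse order of Per2. Of the 16, 10 were highest in replicate 3, beside 37.2% of all genes, and 11 were lowest in replicate 2, beside 36.0% of all genes. Without TMM scaling 9 were lowest in replicate 2, and the share of all genes was not computed for this setting. The part of these genes in the other differences between replicates was not tested.

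**Figure D5:**
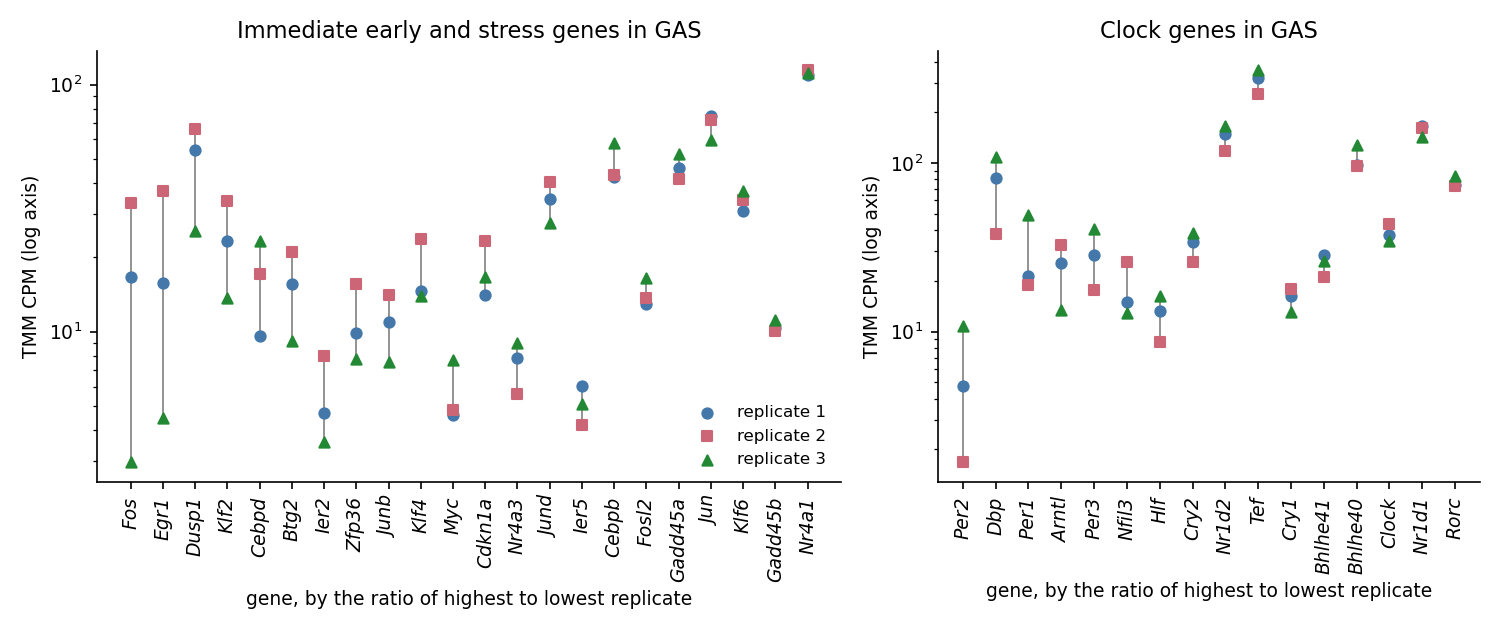
TMM CPM on a log axis of 22 immediate early and stress genes (left) and 16 clock genes (right) with at least 5 CPM, sorted by the ratio of highest to lowest replicate, with a grey line from lowest to highest. Fos and Egr1 are highest in replicate 2 (33.1 and 37.1 CPM), and Per2, Dbp and Per1 are highest in replicate 3 (10.8, 108 and 49.0 CPM).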

How the data were processed

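RNA of GAS was extracted with TRIzol, and libraries of poly(A) RNA were sequenced as paired-end reads. The authors trimmed the reads with Trim Galore 0.6.6, aligned them to mm10 with HISAT2 2.2.1 and counted them with featureCounts of Subread 2.0.1, as named in the submitters' processing notes, and deposited raw counts per Ensembl gene. Annotation release, strand and the treatment of reads with several alignments are not given in the sources used here. According to the labels, RNA was used where its ratio of 28S to 18S passed a threshold.

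Names, coordinates and exonic lengths came from GENCODE M21, which holds 36429 of the 38293 genes listed, and the genes without a match held at most 0.143% of the counts. Total counts were 19941574, 19307793 and 19467900. TMM factors were computed over the 3 GAS libraries with edgeR 4.0.16 in R 4.3.3, and other values with Python 3.11.15, pandas 2.3.3 and matplotlib 3.10.9. RPKM are TMM CPM per kb of exon. Genes with a mean of at least 5 CPM were called past the fold where the highest replicate was at least 1.5 times the lowest. The code of this rule was run on simulated counts, and its pass condition covered counts without biological variation only. It therefore does not measure how many unchanged genes pass the rule in real replicates. No test was made, because there is 1 group. The common biological coefficient of variation in edgeR was 9.71% over 12849 genes.

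Functions, lists and members were chosen with earlier results of these data known, and 4 listed symbols had no match. A gene counts under the first function that names it. Named by rule were the genes of the fiber lists, the 4 genes with the largest share in each function, the 2 with the widest ratio of highest to lowest replicate in each function and list, the 10 genes with the widest ratio over all, and the leading marker of each cell type with the markers at 0. Other list members, and genes outside the lists, were named after their values were seen. Alternatives were no TMM, RLE size factors, RPKM, other filters and folds, a total without the mitochondrial genome and leaving out each replicate. Removal of the trends on length and GC content, in 10 bins each, was added after seeing the data. The MB and MT libraries were not used here, and a few genes that these rules name are not reported here.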

Additional observations from a re-analysis of the deposited data

How the results depend on the processing

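Of 192 alternative values, 146 stayed close to the value given and 46 moved. Every share moved by less than the SD over the 3 replicates when a replicate or unannotated genes were left out. These values are among the 146. This was fixed in advance for the replicates, because leaving out 1 of 3 cannot move their mean by 1 SD. The unannotated genes held at most 0.143% of the counts, so neither setting is a check of the shares. As a share of summed RPKM, the sarcomere held 22.2%, calcium handling 6.29%, glycolysis 5.02%, mitochondria 29.7%, the matrix 0.153% and translation 3.36%. With the mitochondrial genome left out, they held 27.3%, 7.41%, 6.65%, 5.39%, 0.378% and 3.16%, by construction of the total. RLE size factors and removal of the trends on length and GC content kept the CVs, the number of genes past the fold and the numbers of genes highest in one replicate within 1.5 times their value. With the trends removed, the CV of mRNAs of the mitochondrial genome was 4.11%, and 44 in place of 59 ribosomal protein genes were highest in replicate 2.

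Without TMM scaling, the CV of the summed level was 2.76% for the sarcomere, 2.13% for calcium handling, 3.27% for glycolysis, 3.35% for mitochondria, 3.52% for the matrix and 3.38% for translation. Summed as RPKM, translation had a CV of 2.53%. The median CV of single genes was 9.77% in the sarcomere, 7.00% in mitochondria, 9.60% in the matrix, 4.13% in translation and 28.2% in immediate early genes. Leaving out 1 replicate at a time, the CV ranged from 1.253% (without replicate 2) to 6.29% for the sarcomere, from 0.811% (without replicate 2) to 5.37% for calcium handling, from 1.93% (without replicate 2) to 6.99% for glycolysis, from 0.450% (without replicate 1) to 2.21% for mitochondria, from 0.435% (without replicate 1) to 2.90% for the matrix and from 0.693% (without replicate 2) to 1.98% for translation. Without replicate 2 it was lowest for the respiratory chain (3.39% to 11.4%), fatty acid oxidation (5.46% to 19.9%), fast genes (2.07% to 8.24%), type IIA and IIX genes (11.4% to 57.3%), clock genes (7.76% to 18.1%) and immediate early genes (6.46% to 19.3%). Without replicate 3 it was lowest for slow genes (9.07% to 24.6%), mRNAs of the mitochondrial genome (0.5001% to 3.58%) and blood genes (42.7% to 96.0%). The cause was not tested.

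Genes past the fold numbered 414, and 1640 with a mean of at least 1 CPM, 221 with at least 10 CPM, 4829 without a filter beyond 1 count in every library, 1949 at a ratio of at least 5 to 4, 87 at 2-fold and 133 to 305 with 1 replicate left out. Without TMM scaling, 46.0% of all genes were highest in replicate 2. With 3 replicates, each SD is itself uncertain, and counts at or below 3 per library limit low genes. No paired analysis was possible because there is only 1 group.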

Other observations

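Genes that respond to glucocorticoids, FoxO factors or fasting also differed between the replicates, with 11 of 18 genes past 1.5-fold beside 4.55% of all genes. Their sum was 3219, 3724 and 4193 CPM in replicates 1 to 3. Angptl4, an inhibitor of lipoprotein lipase, had 7.87, 19.8 and 9.13 CPM, and Per1, which is also a clock gene, 21.3, 18.8 and 49.0 CPM. Tsc22d3, a glucocorticoid-induced leucine zipper protein, had 212, 194 and 303 CPM and Klf9 132, 115 and 196 CPM, both highest in replicate 3. Fkbp5, another glucocorticoid target, was lowest there with 26.2, 28.1 and 18.8 CPM. Over the list, 10 of 18 genes were highest in replicate 3, beside 37.2% of all genes, and 7 in replicate 2, beside 33.0%. The atrophy ligase genes were even by comparison, Trim63 with 248, 267 and 257 CPM and Fbxo32 with 513, 500 and 407 CPM. Of 12 lipogenic genes with at least 5 CPM, 3 were past 1.5-fold. Scd1, stearoyl-CoA desaturase, had 131, 105 and 224 CPM, and its relative Scd2 went the other way with 14.4, 12.3 and 8.25 CPM. Adipocyte markers were highest in replicate 3 as well, and their part in these values was not tested.

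Regulators of fiber type and metabolism had 5 of 26 genes past 1.5-fold, or 19.2%, beside 4.55% of all genes. Vgll2, a cofactor of TEAD factors, had 28.1, 44.3 and 27.1 CPM, highest in replicate 2. Esrrg, an estrogen-related receptor of oxidative muscle, had 14.8, 19.8 and 12.5 CPM, while Ppargc1a, which encodes the coactivator PGC-1alpha, had 39.2, 30.4 and 46.3 CPM with replicate 2 lowest. Myog, the myogenic factor myogenin, had 7.82, 8.40 and 5.14 CPM. Tbx15, Mef2c, Nfix and Maf had ratios between 1.04 and 1.19.

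Over all genes with at least 5 CPM, the 10 widest ratios included Fos, Egr1, Per2, blood genes, Slc15a2 and Gm21887. Slc15a2, a peptide transporter, had 1.37, 6.83 and 8.82 CPM. Gm21887 had 55.2, 15.4 and 10.1 CPM, and its similar copies make the count uncertain. Among abundant genes outside the lists, named after their values were seen, H19 had 800, 983 and 470 CPM, Slc25a25 87.5, 67.8 and 222 CPM and Arrdc2 35.6, 64.7 and 145 CPM.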
